A study of Homo sapiens with 9 samples.

Results

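The genes described here are the replication-dependent histone genes, counted in ribosome footprints of Jurkat T cells before and after activation through the T cell receptor. They are a list of 52 Ensembl IDs: H1-1 to H1-5, then 13 H2A, 15 H2B, 9 H3 and 10 H4 genes of the histone clusters on chromosomes 6 and 1. Members with 20 or more counts over all libraries were used, which kept 51 of the 52, out of 19569 IDs in the table. The member nearest above this limit was H1-1, with 28 counts, and the member left out, ENSG00000197238.5 of the H4 class, had 0. Only the H1 genes carry symbols here. The others are given by Ensembl ID and class, because no file used here pairs these IDs with names.

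Ribosome profiling sequences the mRNA fragments covered by translating ribosomes, so a footprint count reflects both the amount of an mRNA and its translation. The cells were Jurkat clone E6-1, a single clone of a human T lymphoblast line that proliferates in culture without stimulation. Resting cells, the controls, received no antibody. The other groups were activated for 5 h or for 12 h with anti-CD3 antibody bound to the plate, at a coating concentration of 10 µg/mL, and anti-CD28 antibody in the medium at 5 µg/mL. There were 3 biological replicates per group, 9 libraries in all. Library totals ran from 4343515 to 18506509 counts, and 13920 IDs had enough counts to be tested.

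Histones package DNA. H2A, H2B, H3 and H4 are the core histones around which DNA is wrapped in the nucleosome, and H1 is the linker histone that binds where DNA enters and leaves it. Replication-dependent histone mRNAs are made mainly in S phase, when new DNA must be packaged, and are degraded when replication stops. Unlike most mRNAs they have no introns and typically end in a conserved stem-loop instead of a poly(A) tail, although some of these genes can also give polyadenylated mRNA. Many copies of each core histone gene lie in clusters, and copies within a class code for the same or nearly the same protein. A short footprint can therefore match several copies, and the sources used here do not say how such fragments were assigned. Levels of single core histone IDs, and the part of a class that an ID holds, are uncertain for this reason. The SD over replicates does not cover this. Exchange of fragments between listed copies of a class would leave the sum of the class as it is. The list does not hold every copy: RefSeq (GRCh38.p14) has 17 H2A, 18 H2B, 13 H3 and 14 H4 protein-coding genes by symbol on chromosomes 1 and 6. Exchange with copies outside the list was not tested.

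The promoters of the 5 H1 genes are shown because these genes can be matched by name and because H1-1 had almost no footprints while the others were among the most abundant histone genes. All 5 had an entry in the RefSeq promoter table of build GRCh38.p14. The 150 bases before each start site are printed 5′ to 3′ on the strand of the gene. Capitals mark matches on either strand to AACAAACACA, to CCAAT, and to TATAAA or TATATA, forms of the TATA box that can overlap each other. AACAAACACA is the longest stretch around AAACACA, the core of the known H1 promoter element, that is shared by the genes holding this core on their own strand.
H1-1: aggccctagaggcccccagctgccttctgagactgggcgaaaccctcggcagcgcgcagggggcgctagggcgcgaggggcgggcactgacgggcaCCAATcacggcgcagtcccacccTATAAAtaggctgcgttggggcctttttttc
H1-2: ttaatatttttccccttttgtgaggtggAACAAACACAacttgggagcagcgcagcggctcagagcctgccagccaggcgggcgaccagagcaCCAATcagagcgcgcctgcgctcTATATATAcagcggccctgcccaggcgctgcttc
H1-3: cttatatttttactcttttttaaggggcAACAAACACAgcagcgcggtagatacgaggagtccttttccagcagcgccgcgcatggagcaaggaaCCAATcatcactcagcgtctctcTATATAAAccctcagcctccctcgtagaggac
H1-4: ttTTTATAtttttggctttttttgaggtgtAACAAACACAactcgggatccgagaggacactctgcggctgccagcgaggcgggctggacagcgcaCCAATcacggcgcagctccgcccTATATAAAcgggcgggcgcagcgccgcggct
H1-5: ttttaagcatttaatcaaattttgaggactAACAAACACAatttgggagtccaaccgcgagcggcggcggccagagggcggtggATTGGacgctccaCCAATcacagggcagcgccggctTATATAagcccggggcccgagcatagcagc
These stretches lie at chr6:26017788-26017937 on the minus strand for H1-1, chr6:26056471-26056620 on the minus strand for H1-2, chr6:26234988-26235137 on the minus strand for H1-3, chr6:26156179-26156328 on the plus strand for H1-4 and chr6:27867589-27867738 on the minus strand for H1-5. Over the 250 bases before the start, the core AAACACA lay on the strand of the gene in 4 of the 5. In those 4 the longer AACAAACACA, defined from them, began 120 or 122 bases upstream. H1-1 held the core only on the opposite strand, 183 bases upstream. Among 35116 promoter windows of the same length, 4.82% held the core and 46, or 0.13%, the longer stretch, on either strand. CCAAT was found in all 5 and in 32.01% of all windows. A TATA form was found in all 5 with its first base 29 to 34 bases upstream, and TATAAA occurred in 10.72% and TATATA in 3.73% of all windows. These matches describe letters in a window and were not tied to the footprint values by any test.

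The core histone classes differed in the same search, made by gene symbol on chromosomes 1 and 6 and thus not matched to single IDs. It held 16 H2A, 18 H2B, 11 H3 and 12 H4 genes, of the 17, 18, 13 and 14 in RefSeq. A histone gene was counted if any of its windows held the match, while the percent of all windows counts single windows. ATTTGCAT, the octamer known from H2B promoters, was found on either strand in 14 of 18 H2B genes and 11 of 16 H2A genes, and in 1.63% of all windows. H2A and H2B genes often lie head to head and share the region between them. The octamer was found in 1 of 11 H3 genes and 0 of 12 H4 genes. CCAAT was found in all 16 H2A, all 18 H2B and all 11 H3 genes, and in 3 of 12 H4 genes.

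Histone genes took a large share of all footprints in resting cells, and that share was lower at both times after activation. The 51 IDs together took 8.64%, 7.65% and 8.36% of counts in the resting libraries, 6.07%, 5.35% and 5.75% at 5 h, and 4.71%, 4.85% and 4.75% at 12 h. The groups did not overlap: every 5 h library lay below every resting library, and every 12 h library below every 5 h library. Mean shares (± SD, n = 3) were 8.21% ± 0.51 for resting cells, 5.73% ± 0.36 after 5 h and 4.77% ± 0.070 after 12 h, the last being 58.1% of the resting share. In bulk libraries, fewer cells translating histone mRNA and fewer footprints per cell cannot be told apart. The share is relative to all counted footprints, and the number of footprints per cell was not measured.

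**Figure D1:**
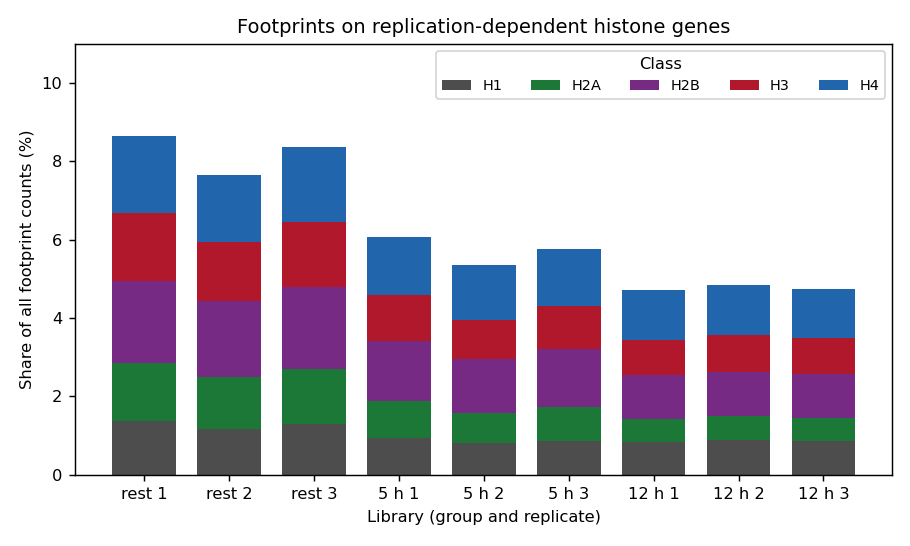
Share of all footprint counts (%, y axis from 0) on the histone IDs in each of the 9 libraries (x axis), stacked by class. Resting libraries reach 7.65% to 8.64%, 5 h libraries 5.35% to 6.07% and 12 h libraries 4.71% to 4.85%.

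Every class took a smaller share after activation, by unequal amounts. H2A took 1.40% ± 0.068 of all counts in resting cells, 0.862% ± 0.093 after 5 h and 0.597% ± 0.016 after 12 h (± SD, n = 3), the last being 42.5% of its resting share. H2B stood at 54.7% and H3 at 56.6% of their resting shares at 12 h. H4 stood at 68.2%, and H1 at 67.8%. H1 had reached this level by 5 h, with 0.867% ± 0.058 of counts then and 0.868% ± 0.018 after 12 h. For each class, all activated libraries lay below all resting ones. The mixture within the histone counts differed too: H2A made up 17.1% ± 0.25 of them in resting cells, 15.0% ± 0.72 after 5 h and 12.5% ± 0.16 after 12 h. For H4 these proportions were 22.5% ± 0.29, 25.2% ± 0.99 and 26.4% ± 0.31. For H1 they were 15.6% ± 0.39, 15.1% ± 0.21 and 18.2% ± 0.14, so that only the 12 h value stood apart. Such proportions do not depend on library scaling, and none of them was given a test.

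Of the 51 IDs, 50 passed the filter on low counts and entered the fit, and H1-1 did not. In edgeR's quasi-likelihood test, with p-values adjusted by Benjamini and Hochberg's method over all 13920 IDs, 48 of the 50 were lower at 5 h than at rest and none was higher. Of all tested IDs, 18.4% were called lower and 16% higher in that comparison. At 12 h all 50 were lower than at rest, where 19.3% of all tested IDs were called lower and 15.8% higher. Between 5 h and 12 h, 37 fell and none rose, where 13.5% of all tested IDs were called lower and 11.6% higher. The median log2 fold change of the 50 was -0.77 at 5 h, -1.24 at 12 h, and -0.40 from 5 h to 12 h. Over all tested IDs these medians were 0.07, 0.04 and -0.05. In 48, 50 and 39 of the 50, in the same order, every library of the later group lay below every library of the earlier one, which held for 22.6%, 23.7% and 20.8% of all tested IDs. Both comparisons with rest use the same resting libraries. Against a threshold of 1.5-fold in place of any change, 28 of the 50 passed at 5 h, 39 at 12 h and 11 between the times.

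Abundant IDs were often lower after activation in these libraries, so the histone genes were also set beside other IDs above a common lower limit. Levels above that limit were not matched. CPM here are counts per 1000000 of the library total scaled with TMM factors. Of the 680 other IDs averaging at least 256 CPM, 50.9% were called lower at 5 h, 49% at 12 h and 26.2% between the times, with median log2 fold changes of -0.22, -0.21 and -0.02. At 12 h, 54 of the 725 IDs of this abundance were called lower by more than 2-fold, and 27 of them were histone IDs. These 27 were 60% of the 45 histone IDs in the range. Of the 9 that fell more than 4-fold, 5 were histone IDs. The range is set by the mean over all libraries, and 4 of these 5 were under 256 CPM at 12 h. They are in it through their levels in the other groups. The same holds for further IDs among the 27. At 12 h ENSG00000275714.2 had a mean of 181 CPM, ENSG00000184270.6 of 206 and ENSG00000287080.2 of 248. The 27 of 54 and the 60% therefore carry this limit too. At 5 h, 9 of 23 falls beyond 2-fold were histone IDs, or 20% of the 45, and 14 were among the 680 others. ENSG00000275714.2, among the 9, had a mean of 252 CPM at 5 h. Between 5 h and 12 h, 2 of 16 were histone IDs, or 4.44% of the 45, and 0 of 3 beyond 4-fold. These 2, ENSG00000273703.2 and ENSG00000273802.2, had means of 115 and 224 CPM at 12 h. The 9 of 23 and the 2 of 16 therefore carry the same limit.

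**Figure D2:**
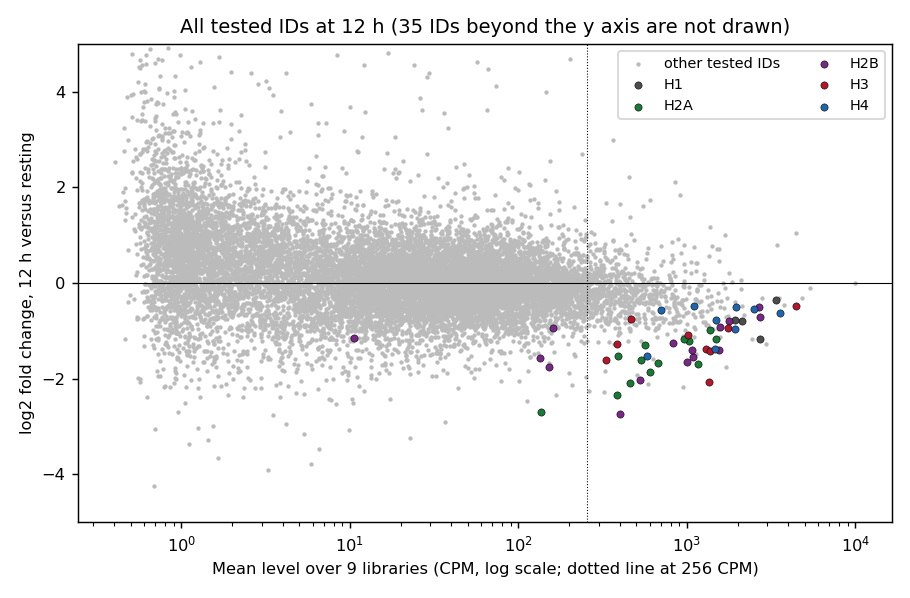
Log2 fold change at 12 h versus rest (y axis) against the mean level over 9 libraries (x axis, CPM, log scale) for all tested IDs, with histone IDs coloured by class. All 50 histone IDs lie below 0, and 45 of them lie right of the dotted line at 256 CPM; 35 IDs beyond the y axis are not drawn.

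The H1 genes, which code for linker histone variants, fell by 5 h, and none of the 4 tested passed the test between 5 h and 12 h. H1-2 stood at 4238, 3799 and 4054 CPM at rest, 3088, 2786 and 2999.9 at 5 h, and 3078, 3232 and 3112 at 12 h. Both activated groups lay below rest and overlapped each other. Its log2 fold change was -0.45 ± 0.06 (SE of the fit) at 5 h and -0.36 ± 0.06 at 12 h, with adjusted p of 1.4e-06 and 2.43e-05 by edgeR. The 12 h value was the smallest fall of any tested histone ID at that time. H1-5 stood at 4598, 3846 and 4223 CPM at rest, 2271, 1951 and 2099 at 5 h, and 1830.1, 1915 and 1871 at 12 h. It fell by 1.00 ± 0.07 at 5 h and by 1.17 ± 0.07 at 12 h on the log2 scale, with adjusted p of 3.59e-11 and 2.86e-12 by edgeR. At rest H1-5 and H1-2 overlapped in CPM, and in both activated groups every H1-5 library lay below every H1-2 library.

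H1-3 went from 2948 ± 207 CPM at rest to 1699.7 ± 69.1 at 5 h and 1689 ± 24.8 at 12 h (SD, n = 3). H1-4 went from 2598 ± 211 to 1703 ± 131 and 1516 ± 56.2 CPM. Their log2 fold changes at 12 h were -0.80 ± 0.06 for H1-3 and -0.78 ± 0.07 for H1-4, at adjusted p of 4.6e-10 and 5.53e-09 in edgeR's test. From 5 h to 12 h the adjusted p was 0.31 for H1-2, 0.944 for H1-3, 0.0793 for H1-4 and 0.0643 for H1-5 by edgeR. H1-4 and H1-5 did pass when 5 h replicate 2 was left out, at adjusted p of 0.0284 and 0.0255 by edgeR, and when resting replicate 2 was left out, at 0.0441 and 0.0263. H1-5 also passed without resting replicate 1, at 0.047 by edgeR. Within the class, H1-2 held 29.2% ± 0.65 of H1 counts in resting cells, 34.9% ± 0.14 after 5 h and 38.2% ± 0.20 after 12 h (± SD, n = 3). For H1-5 these parts were 30.6% ± 0.85, 24.9% ± 0.65 and 22.8% ± 0.19.

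H1-1 was nearly without footprints. Its counts were 1, 0 and 16 at rest, 1, 1 and 0 at 5 h, and 2, 4 and 3 at 12 h. Resting replicate 3 thus held 16 of its 28 counts, and the groups overlapped. Per kilobase of RefSeq gene length, which is 731 to 797 bases for the 5 genes and includes untranslated sequence, resting levels were 5513 ± 302 CPM for H1-2, 5298 ± 472 for H1-5, 3799 ± 267 for H1-3, 3301 ± 269 for H1-4 and 0.781 ± 1.22 for H1-1 (SD, n = 3). Libraries of H1-2 and H1-5 overlapped on this scale, as did those of H1-3 and H1-4, and the first pair lay above the second.

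**Figure D3:**
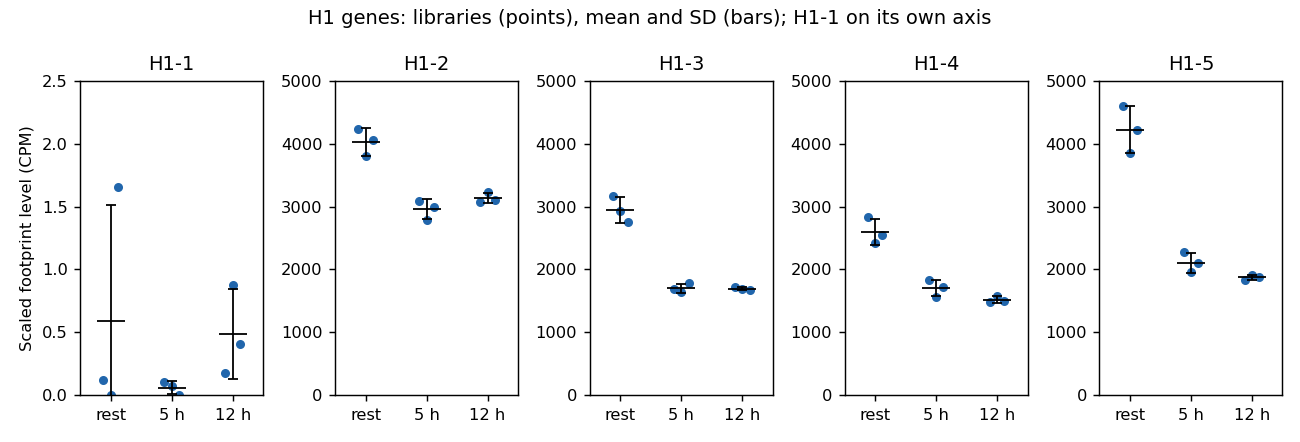
Scaled footprint levels (CPM, y axis from 0) of the 5 H1 genes at rest, 5 h and 12 h; points are libraries and bars show mean and SD (n = 3), with H1-1 on its own axis. H1-2 to H1-5 lie lower in every activated library than in every resting one, and H1-1 stays under 2 CPM.

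H2A, which pairs with H2B in the nucleosome, was the class with the lowest median. All 13 H2A IDs were called lower than rest at 5 h and at 12 h, and all 13 lower at 12 h than at 5 h. Between 5 h and 12 h the libraries of 12 of the 13 did not overlap. Those of ENSG00000196747.4, named after its values were seen, did overlap. The median log2 fold change of the 13 was -0.85 at 5 h and -1.61 at 12 h, with single values at 12 h from -2.70 to -0.97. ENSG00000275221.2 had 249, 211 and 259 CPM at rest, 141, 122 and 133 at 5 h, and 31.1, 36.1 and 44.4 at 12 h. The groups were wide apart. On the log2 scale the change was -0.86 ± 0.11 at 5 h, -2.70 ± 0.13 at 12 h and -1.84 ± 0.12 between the times, with adjusted p of 2.26e-06, 8.26e-14 and 1.25e-10 by edgeR.

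The H2A ID with the highest mean over all 9 libraries, ENSG00000278677.2, had 2253, 2273 and 2106 CPM at rest, 1361, 1134 and 1336 at 5 h, and 988, 989 and 985 at 12 h. It fell by 0.79 ± 0.07 at 5 h and by 1.16 ± 0.07 at 12 h on the log2 scale, with adjusted p of 3.64e-09 and 6.58e-12 by edgeR. ENSG00000196787.3 showed the mildest fall of the class at 12 h, from 1929.7 ± 38.2 CPM at rest to 1182 ± 112 at 5 h and 984 ± 43.9 at 12 h. Its difference between 5 h and 12 h, -0.26 ± 0.07 with an adjusted p of 0.00611 by edgeR, lost its call without 5 h replicate 3 and without 12 h replicate 3. The adjusted p was then 0.0792 and 0.0505 by edgeR. Limma on the deposited log2 values did not call it either (adjusted p of 0.14). ENSG00000276368.2 stood close to these IDs at rest, at 1868 ± 55.3 CPM, and was lower than both at 12 h, with 1034 ± 122 at 5 h and 577 ± 56.3 at 12 h. ENSG00000180573.10 went from 1511 ± 109 to 913 ± 84.2 and 649 ± 45.1 CPM. ENSG00000278677.2 held 14.6% ± 0.64 of H2A counts at rest and 17.5% ± 0.46 at 12 h, and ENSG00000275221.2 held 1.58% ± 0.16 and 0.658% ± 0.12.

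H2B held both the largest fall and some of the smallest. Of 15 H2B IDs, 14 fell at 5 h, all 15 were lower than rest at 12 h and 11 fell between the times. The class median was -0.77 at 5 h and -1.39 at 12 h on the log2 scale. ENSG00000273703.2 had 773, 759.5 and 761 CPM at rest, 326, 321 and 327 at 5 h, and 113, 114 and 119 at 12 h. Replicates lay close together and the groups far apart. Its log2 fold change was -1.24 ± 0.07 at 5 h and -2.73 ± 0.08 at 12 h, with adjusted p of 5.01e-12 and 2.29e-17 by edgeR, and the 12 h value was the largest fall among the tested histone IDs. ENSG00000273802.2 had 896, 939.9 and 908 CPM at rest, 463, 410.2 and 474 at 5 h, and 217, 226 and 229 at 12 h. It fell by 2.03 ± 0.08 at 12 h on the log2 scale, with an adjusted p of 3.02e-15 by edgeR.

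At the other end, ENSG00000197903.8 had 3207, 3013 and 2993 CPM at rest, 2847, 2593 and 2853 at 5 h, and 2169.6, 2221 and 2124 at 12 h. Its 5 h libraries lay just below the resting ones and its 12 h libraries clearly below both. At 5 h the log2 fold change was -0.15 ± 0.06, with an adjusted p of 0.0431 by edgeR. This call was lost with the replicate number as a block (adjusted p of 0.0626 by edgeR) and with upper quartile scaling (adjusted p of 0.075). With scaling to the total count alone the log2 fold change was -0.0082, with an adjusted p of 0.918 by edgeR. The call was lost, too, without a filter on low counts (adjusted p of 0.0804 by edgeR), with at least 50 counts asked for in 3 libraries (0.132), with only the 6 libraries compared (0.0673) and by limma on the deposited log2 values (0.153). It was also lost without resting replicate 1 (adjusted p of 0.158 by edgeR), without 5 h replicate 2 (adjusted p of 0.188) and without any one of the 12 h replicates 1 to 3 (adjusted p of 0.0537 to 0.0593). At 12 h the value was -0.50 ± 0.06, with an adjusted p of 2.94e-07 by edgeR. It held 13.9% ± 0.27 of H2B counts in resting cells, 19.4% ± 0.046 after 5 h and 20.5% ± 0.34 after 12 h.

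ENSG00000180596.7, the H2B ID with the highest mean over all 9 libraries, went from 3464 ± 166 CPM at rest to 2518 ± 108 at 5 h and 2125 ± 30.3 at 12 h (SD, n = 3). ENSG00000124635.9 went from 2384 ± 80.0 to 1565 ± 94.8 and 1375 ± 50.9 CPM. Its difference between 5 h and 12 h had an adjusted p of 0.0294 by edgeR and was not called by DESeq2 (adjusted p of 0.0588). By edgeR it was not called without 5 h replicate 1 or 3, or without any 1 of the 12 h replicates. The adjusted p was then at most 0.253 by edgeR. Nor was it called by edgeR with RLE size factors (adjusted p of 0.0797) or the total count alone (0.0818). With the deposited size factors the adjusted p was 0.0953 by edgeR. It was 0.052 with at least 50 counts in 3 libraries and 0.055 with only the 6 libraries compared. ENSG00000158373.8 went from 2235 ± 93.5 to 1328 ± 80.6 and 1184 ± 24.1 CPM. Its difference between the times had an adjusted p of 0.0584 by edgeR, or 0.0312 without 5 h replicate 2 and 0.0322 without resting replicate 2. The H2B ID not called at 5 h was ENSG00000274290.3, named after its values were seen. It was far less abundant than the rest of its class, with 16.3, 12.3 and 14.3 CPM at rest, 9.96, 7.33 and 16.4 at 5 h and 8.20, 2.40 and 7.65 at 12 h, and its 12 h replicate 2 had 11 counts.

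**Figure D4:**
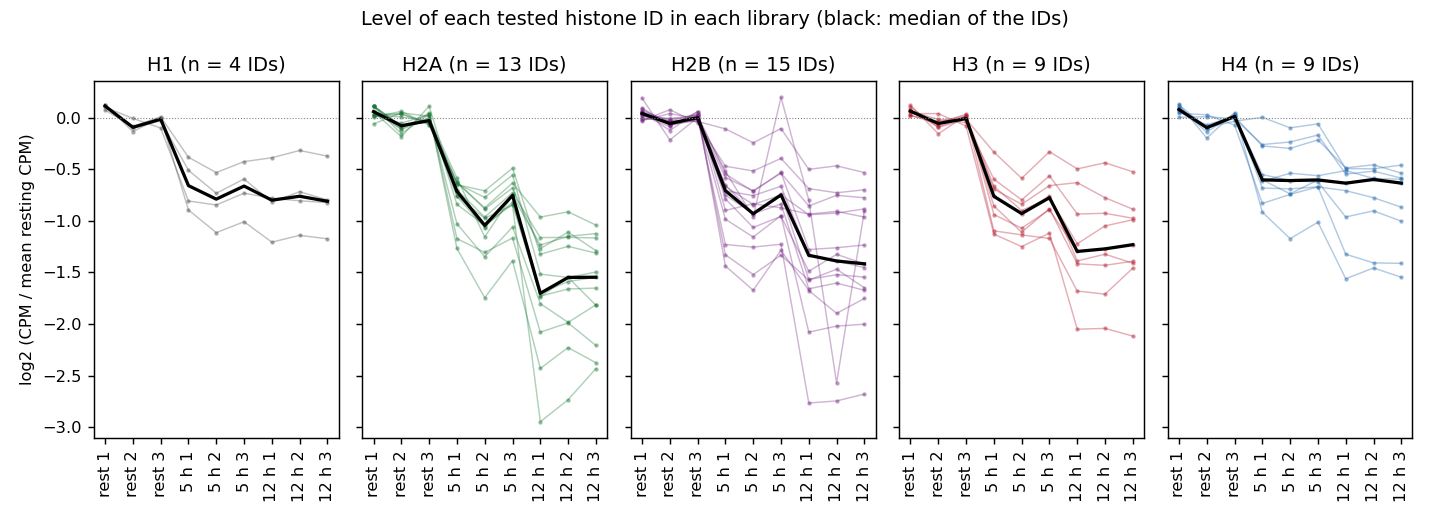
Level of each tested histone ID in each library (x axis) as log2 of its CPM over its resting mean (y axis), by class; lines only join the points of an ID, and the black line is the median of the IDs. H2A, H2B and H3 medians are lower at 12 h than at 5 h.

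All 9 H3 IDs fell at 5 h and were lower than rest at 12 h, and 7 fell between the times. H3 carries many of the histone tail modifications known from chromatin. The class median was -0.81 at 5 h and -1.27 at 12 h on the log2 scale. A single ID, ENSG00000286522.2, held 30.4% ± 0.59 of H3 counts in resting cells, 37.6% ± 0.72 after 5 h and 43.8% ± 0.61 after 12 h (± SD, n = 3). This part depends on how fragments matching several copies were assigned, which is not stated. ENSG00000286522.2 had 5771, 5032 and 5323 CPM at rest, 4264, 3576 and 4276 at 5 h, and 3809, 3969.6 and 3735 at 12 h. Both activated groups lay below rest and overlapped each other. It fell by 0.41 ± 0.06 at 5 h and by 0.49 ± 0.06 at 12 h on the log2 scale, with adjusted p of 2.22e-05 and 2.58e-06 by edgeR, and between the times the adjusted p was 0.476.

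ENSG00000197153.5 lost most within the class. It had 2474, 2475 and 2278 CPM at rest, 1102, 1013 and 1109 at 5 h, and 582, 585 and 555 at 12 h, and no groups overlapped. On the log2 scale the change was -1.16 ± 0.06 at 5 h and -2.07 ± 0.07 at 12 h, with adjusted p of 1.25e-12 and 1.39e-16 by edgeR. It held 13.7% ± 0.87 of H3 counts in resting cells, 10.0% ± 0.34 after 5 h and 6.55% ± 0.13 after 12 h. ENSG00000273983.1 went from 2440.2 ± 95.0 CPM at rest to 1557 ± 133 at 5 h and 1268 ± 22.7 at 12 h, and ENSG00000278828.1 from 2173 ± 209 to 1129 ± 106 and 816 ± 11.4 CPM. The difference of ENSG00000273983.1 between 5 h and 12 h, -0.30 ± 0.07 with an adjusted p of 0.00142 by edgeR, was not called by limma on the deposited log2 values (adjusted p of 0.0865). The 3 IDs had similar levels at rest, and at 12 h the libraries of each lay apart from those of the others.

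H4, which pairs with H3, had the smallest median fall of the 5 classes against rest, at 5 h and at 12 h. Of 9 tested H4 IDs, 8 fell at 5 h, all 9 were lower than rest at 12 h and 6 fell between the times. The class median was -0.59 at 5 h and -0.62 at 12 h on the log2 scale. From 5 h to 12 h the median was -0.33 for H4, beside -0.31 for H3 and -0.09 for H1. ENSG00000273542.2 had 5048, 4389 and 4696 CPM at rest, 3102, 2824 and 3100.1 at 5 h, and 3034, 3109.8 and 3034 at 12 h. The activated groups lay below rest and overlapped each other. It fell by 0.65 ± 0.06 at 5 h and by 0.62 ± 0.06 at 12 h on the log2 scale, with adjusted p of 5.96e-09 and 1.27e-08 by edgeR. The H4 ID not called at 5 h, ENSG00000278637.2, was named after its values were seen. It had 1336, 1146 and 1198 CPM at rest, 1229, 1145 and 1176 at 5 h, and 871, 869.6 and 892 at 12 h. At 12 h it fell by 0.48 ± 0.07 on the log2 scale, with an adjusted p of 5.78e-06 by edgeR, and at 5 h the adjusted p was 0.589.

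ENSG00000197061.5 had 2954, 2965 and 2926 CPM at rest, 2461, 2503 and 2622 at 5 h, and 2017, 2058 and 1964 at 12 h, so that the groups stepped down without overlap. Its log2 fold change was -0.22 ± 0.05 at 5 h and -0.55 ± 0.05 at 12 h, with adjusted p of 0.00255 and 3.09e-08 by edgeR. ENSG00000276966.2 went from 2319 ± 132 CPM to 1934 ± 57.3 and 1647 ± 46.7, and ENSG00000158406.5 from 2656 ± 166 to 1759 ± 47.0 and 1369 ± 47.9 CPM. The 5 h calls of ENSG00000197061.5 and ENSG00000276966.2 were lost with scaling to the total count alone, at adjusted p of 0.2 and 0.106 by edgeR. The difference of ENSG00000276966.2 between the times was lost without 5 h replicate 3, at an adjusted p of 0.0668 by edgeR. ENSG00000197238.5 had 0 of 93094895 counts over all libraries, which allows up to 3 counts, or 0.0322 per 1000000, for counting error only. Whether fragments of this copy were counted under another H4 ID was not tested.

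**Figure D5:**
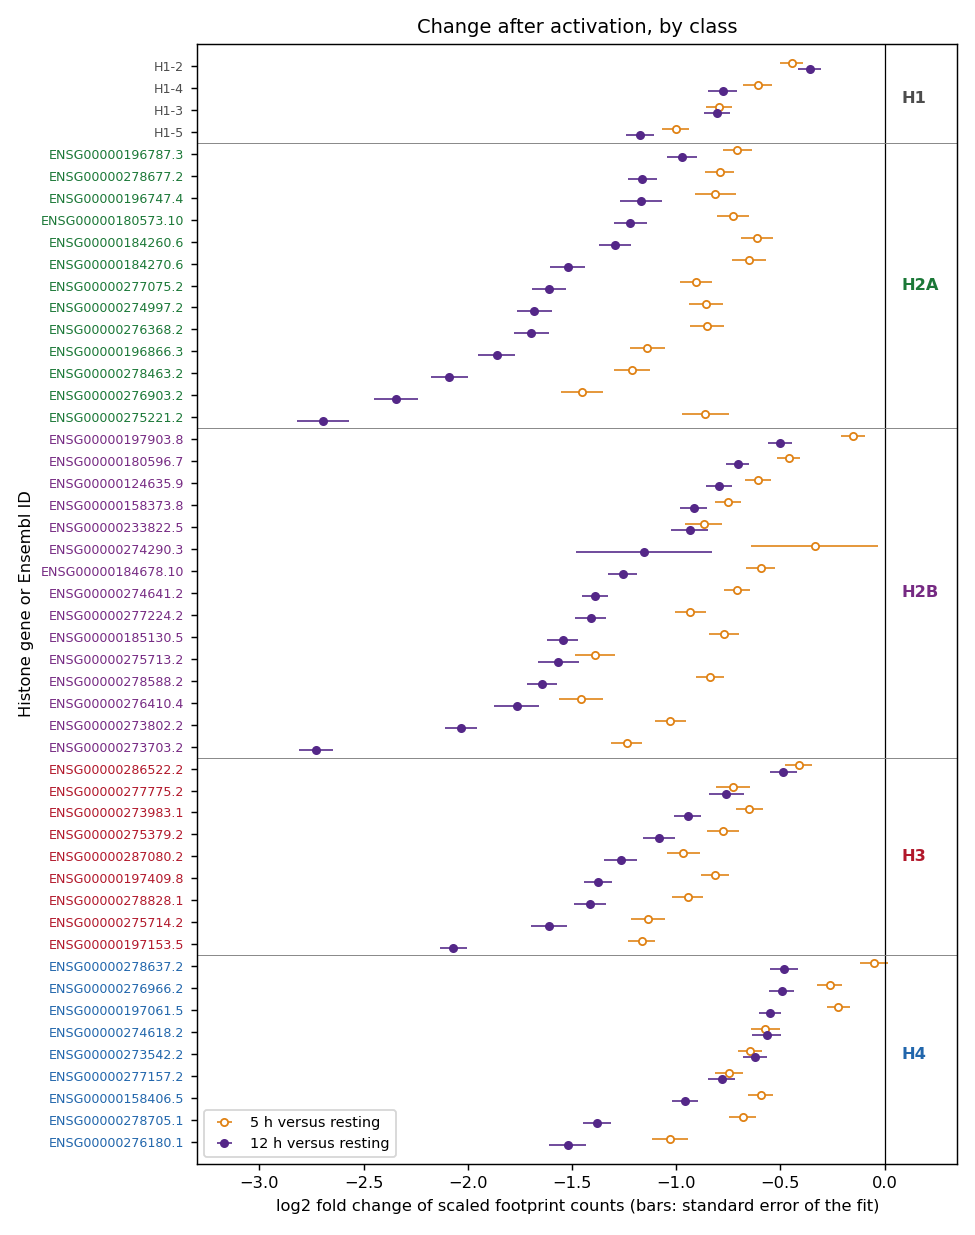
Log2 fold change of each tested histone ID, grouped by class, at 5 h and 12 h versus rest, with the SE of the fit as bars. At 12 h the values run from -2.73 to -0.36, and the H2A IDs lie between -2.70 and -0.97.

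By course over time, 36 IDs were lower at 5 h and lower again at 12 h: all 13 H2A, 11 H2B, 7 H3 and 5 H4 IDs. A further 12 were lower at both times with no called difference between them: all 4 tested H1 IDs, 3 H2B, 2 H3 and 3 H4. The remaining 2 were called lower than rest at 12 h but not at 5 h, and they were the H2B and H4 IDs named above. No histone ID was called higher in any comparison. How many of all tested IDs followed each course was not counted, and a difference between classes in these courses was not tested.

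Most histone genes were missing from the authors' log2 table, which lists 11572 IDs. Of the 13219 IDs with a count in every library, 12.5% were not in it, and of the 50 histone IDs with a count in every library 37, or 74%, were not. Those it held were 3 H1 IDs (H1-2, H1-3 and H1-4), 2 of 13 H2A, 5 of 15 H2B, 1 of 9 H3 and 2 of 9 used H4 IDs. Of 55 abundant IDs left out of it, with a mean of at least 1000 counts and a count in every library, 37, or 67.3%, were histone IDs. The rule by which the table was made is not stated. The presence of a poly(A) tail was not measured here, and its part in the omission was not tested.

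Histone IDs in that table and those left out of it differed in how far they fell. The 13 listed IDs had a median log2 fold change of -0.61 at 5 h and -0.92 at 12 h, with the 12 h values from -1.26 to -0.36. The 37 IDs left out had medians of -0.84 and -1.41, with 12 h values from -2.73 to -0.49. All 6 IDs that fell more than 4-fold at 12 h were among those left out. Within classes the 12 h medians were -1.10 for the 2 listed and -1.68 for the 11 unlisted H2A IDs, -0.94 and -1.56 for 5 and 10 H2B IDs, and -0.52 and -0.78 for 2 and 7 H4 IDs. The ranges overlapped in all 3 of these classes. The 18 other abundant IDs left out of the table had medians of -0.34 at 5 h and -0.07 at 12 h, with 10 lower and 6 higher at 5 h and 7 lower and 8 higher at 12 h. These are descriptions, with no test of the difference.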

How the data were processed

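The deposited count table holds whole-number footprint counts per versioned Ensembl ID, made by the authors without normalization. Cutadapt 3.2, Bowtie, bedtools, RSEM, DESeq2 and the build GRCh38.p13 are named, without roles, in the submitters' processing notes. The sources used here do not say how fragments matching several copies were counted. The deposited log2 values equal log2 of the count over 1 size factor per library, plus 1, within 5.03e-09, and served only as an alternative.

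Counts of all 9 libraries entered 1 fit in edgeR 4.0.16 (R 4.3.3): TMM scaling, filterByExpr, the quasi-likelihood test, and Benjamini-Hochberg adjustment over all tested IDs, called at an adjusted p under 0.05. Changes are relative to the scaled library. In the smallest library 1 count is 0.219 CPM. The replicate numbers tie no libraries together by any label, and same-numbered libraries did not deviate together (correlations from -0.063 to 0.122). Alternatives in scaling, filter, tool (DESeq2 1.42.0, limma 3.58.1) and libraries were tried.

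The members and lists were chosen with earlier results of these data known. The symbols H1-1 to H1-5 and the order of the classes come with the list, and the boundaries between the other classes were set from general knowledge of these IDs. Members named in the text were the H1 genes, the 4 most abundant IDs of each other class over all libraries, the 3 with the lowest p in each comparison and those beside the 20-count limit. Genes known only by symbol (histone processing factors, chaperones, T cell markers) were not matched to IDs and are not analysed here, so the labelled cell type was not checked against markers.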

Additional observations from a re-analysis of the deposited data

Results flagged for a closer look

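The effect of activation differed between 5 h and 12 h for 37 of the 50 tested histone IDs, by the direct test of 12 h against 5 h in edgeR, and in all 37 the later level was the lower. Among the named IDs the largest differences on the log2 scale were -1.84 for ENSG00000275221.2 (H2A), -1.49 for ENSG00000273703.2 (H2B) and -1.01 for ENSG00000273802.2 (H2B). In H2A the others were -0.84 for ENSG00000276368.2, -0.49 for ENSG00000180573.10, -0.37 for ENSG00000278677.2 and -0.26 for ENSG00000196787.3. In H2B they were -0.35 for ENSG00000197903.8, -0.24 for ENSG00000180596.7 and -0.19 for ENSG00000124635.9. H3 had -0.90 for ENSG00000197153.5, -0.47 for ENSG00000278828.1 and -0.30 for ENSG00000273983.1, the last not called by limma on the deposited log2 values. H4 had -0.36 for ENSG00000158406.5, -0.33 for ENSG00000197061.5 and -0.23 for ENSG00000276966.2. The calls of ENSG00000196787.3, ENSG00000124635.9 and ENSG00000276966.2 were lost under some alternatives, as given with these IDs above.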

How the results depend on the processing

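Under every alternative run, no histone ID was called higher in any comparison, and at 12 h versus rest every tested histone ID had a value below 0. Scaling to the total count alone, size factors taken from the deposited log2 values and the test against 1.5-fold were chosen after seeing the data. The 1.5-fold test, which asks for more than any change, called 28 IDs at 5 h and 11 between the times. Its calls over all tested IDs were not counted. Other alternatives on the count table kept the counts of calls within 1.5 times. Leaving out a library gave 47 to 48 calls at 5 h, 50 at 12 h and 31 to 41 between the times. The replicate block gave 47, 50 and 38 calls, and the samples share only a number. Scaling to the total count alone moved the median of all tested IDs at 12 h from 0.04 to 0.23 and that of the histone IDs from -1.24 to -1.05, with 45, 50 and 35 calls. With effective library sizes as denominator the histone share was 8.86% at rest and 4.52% at 12 h. Between 5 h and 12 h the value of H1-3, not called in any setting, turned from -0.01 to 0.018 (RLE size factors), 0.0030 (upper quartile), 0.025 (at least 50 counts in 3 libraries), 0.019 (DESeq2), 0.019 (only the 6 libraries compared), 0.037 (total count alone), 0.032 (deposited size factors) and 0.033 (limma on the deposited log2 values). Leaving out a library gave -0.037 to 0.051 for H1-3 and -0.022 to 0.074 for ENSG00000273542.2, also never called between the times. Limma on the log2 table, which holds 13 of the IDs, called 10, 12 and 5 of them lower. Summing copies that code for the same protein, levels per coding length and the lists of related genes were not run, since protein sequences and ID pairings were not used here. Depth limits H1-1 and ENSG00000274290.3 most.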
